A study of Homo sapiens with 12 samples.

Results

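The 249 zinc finger genes described here are the protein-coding genes of chromosome 19 whose symbol is ZNF followed by a number, chosen by symbol, biotype and chromosome alone, without any measured value. They were 249 of the 58735 genes in the count table, 249 of the 1472 protein-coding genes of chromosome 19, and 249 of the 514 protein-coding genes with such a symbol on any chromosome. Their RNA was measured in HK-2, an immortalized human cell line of renal proximal tubular epithelium, after 48 h with water in the Control group, with iohexol at 75 mg I/mL, with cisplatin at 5 μM or with vancomycin at 4 mM. Iohexol is an iodinated contrast medium, cisplatin a platinum drug that forms adducts with DNA, and vancomycin a glycopeptide antibiotic. The study set out to find genes that these nephrotoxic drugs change in common, and each group held 3 samples. The labels do not state whether replicates were separate cultures, so the p-values measure only the spread between these samples, which may be technical.

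C2H2 zinc finger proteins bind DNA through short modules, each folded around a zinc ion held by a pair of cysteines and a pair of histidines. In most proteins of this family on chromosome 19 a KRAB box at the amino end recruits TRIM28 (KAP1), which brings in the histone methyltransferase SETDB1 and HP1 proteins, so that the bound DNA becomes packed and silent. Many of their known targets are transposable elements, and the genes themselves lie in clusters that grew by tandem duplication, so that neighbours are often close copies of each other.

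The GENCODE protein of 246 of the 249 members held at least 1 finger of the form C-x(2,4)-C-x(12)-H-x(3,5)-H, with a median of 12 fingers and at most 36. A KRAB box, searched as a pattern of 8 fixed residues of which up to 2 could differ, was found in 211 members (84.7%) and not in 38. The coding sequence of a single finger is shown for 6 members to which the results return, on GRCh38 and in the sense of the gene, with the codons of the 4 zinc-binding residues in capitals. ZNF121 has a finger at chr19:9566594-9566677, ZNF91 at chr19:23362094-23362177, ZNF257 at chr19:22088357-22088440, ZNF468 at chr19:52841478-52841561 and ZNF888 at chr19:52907509-52907592, all on the minus strand except ZNF257, and ZNF331 has one at chr19:53576957-53577040 on the plus strand. Each stretch lies in the last exon of its transcript.
ZNF121: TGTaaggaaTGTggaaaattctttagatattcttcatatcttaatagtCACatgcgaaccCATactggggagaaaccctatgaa
ZNF91: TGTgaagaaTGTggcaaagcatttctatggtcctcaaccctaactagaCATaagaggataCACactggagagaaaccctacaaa
ZNF257: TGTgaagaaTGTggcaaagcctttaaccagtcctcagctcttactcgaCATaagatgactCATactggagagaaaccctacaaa
ZNF468: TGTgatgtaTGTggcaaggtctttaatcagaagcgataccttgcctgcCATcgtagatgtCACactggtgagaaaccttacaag
ZNF888: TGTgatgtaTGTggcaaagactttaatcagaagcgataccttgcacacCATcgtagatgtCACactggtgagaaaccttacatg
ZNF331: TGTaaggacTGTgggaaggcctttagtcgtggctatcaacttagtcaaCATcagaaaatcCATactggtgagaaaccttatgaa
The fingers of ZNF468 and ZNF888, which lie close together on the chromosome, had 78 of 84 bases in common, those of ZNF91 and ZNF257 had 70, and those of ZNF468 and ZNF331 had 51. The KRAB stretch is shown for 5 of them, with the codons of the fixed residues in capitals. It lies at chr19:23374705-23374752 in ZNF91, chr19:22072821-22072868 in ZNF257, chr19:52849154-52849201 in ZNF468, chr19:52915263-52915310 in ZNF888 and chr19:53571616-53571663 in ZNF331.
ZNF91: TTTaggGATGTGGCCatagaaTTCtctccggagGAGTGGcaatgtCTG
ZNF257: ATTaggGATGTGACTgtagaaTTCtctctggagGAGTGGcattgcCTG
ZNF468: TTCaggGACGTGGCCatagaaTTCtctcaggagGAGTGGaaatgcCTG
ZNF888: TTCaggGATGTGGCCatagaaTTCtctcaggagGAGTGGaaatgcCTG
ZNF331: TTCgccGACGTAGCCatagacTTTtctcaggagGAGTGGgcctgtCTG
ZNF468 and ZNF888 shared 47 of the 48 bases of this stretch, and ZNF257 differed from the pattern at 2 of the fixed residues. A median of 9.81% of a member's 31-base words also occurred in a transcript of another gene, which may be a near copy or any other gene. The share was over 50% in 16 members, so their counts may be divided between such genes. A further limit is that 182 of the 249 members overlap another annotated gene by their spans, introns included. The library kit did not mark strand, so reads from stretches that transcripts of both genes cover cannot be told apart.

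Total counts ranged from 14057282 to 18177109 per sample. A floor of 3 counts, which covers counting error only, corresponded to 0.165 to 0.213 CPM. The CPM of this floor and of the cell type markers are counts scaled to the library total. The CPM of members and cofactor genes were also scaled by TMM factors, from 0.885 (Vancomycin replicate 2) to 1.13 (Cisplatin replicate 1). All 249 members are accounted for as follows. No count was found for 7 of them in any sample (ZNF676, ZNF98, ZNF492, ZNF99, ZNF723, ZNF728 and the read-through gene ZNF816-ZNF321P), and 242 had at least 1 count. The filter on low counts kept 228 members in the iohexol comparison, 230 with cisplatin and 226 with vancomycin, 231 entered at least 1 of them and 18 entered none. Among the tested members, 3, 5 and 1 had a mean under 10 counts in the Control group and passed through the drug group, and 0, 1 and 3 did so the other way round. In HK-2 the tubular genes GGT1 and PAX8 were at 114.5 CPM or more and the keratins KRT8, KRT18 and KRT19 at 34.5 CPM or more in every sample, whereas the other 6 of the 8 proximal tubule markers reported were low. LRP2, which encodes megalin, was at most 0.168 CPM, AQP1 0.842, SLC34A1 0.751, CUBN 2.25, SLC5A2 2.49 and ANPEP 5.24 CPM, and the epithelial gene CDH1 at most 0.482 CPM. PTPRC, CD3E and CD68, markers of blood or immune cells, were at most 0.299 CPM. The endothelial gene PECAM1 was 3.69 to 4.13 CPM with iohexol and at most 2.21 CPM elsewhere. The endothelial markers CDH5 and VWF did not follow it. With iohexol CDH5 was at 0 CPM and VWF at most 0.213 CPM, where VWF reached 0.422 CPM in the Control group. Of the fibroblast or pericyte markers, ACTA2 was 0.786 to 2.04 CPM with vancomycin and at most 0.385 CPM elsewhere. PDGFRB was 0.482 to 0.70 CPM in the Control group, 0.213 to 1.06 CPM with iohexol, 1.11 to 2.05 CPM with cisplatin and 1.01 to 1.485 CPM with vancomycin. The part of other cells in the results was not tested. Iohexol replicate 3 stood apart from the other iohexol samples: the chi-square of its counts against theirs, divided by the degrees of freedom, was 17.5 and 16.5, against 3.82 between the other pair and 2.34 to 13.1 within the other groups.

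The members were expressed at low levels. In the Control samples the median member was at 8.98 CPM, and per kilobase of gene length the tested members of the cisplatin comparison had a median of 1.79 CPM per kb, against 5.95 CPM per kb over the other protein-coding genes tested. The highest level per length was that of ZNF146 at 39.0 ± 3.21 CPM per kb (SD, n = 3), followed by ZNF787 at 17.7 ± 1.2, ZNF579 at 13.8 ± 1.05, ZNF581 at 13.6 ± 1.98 and ZNF865 at 13.4 ± 1.19 CPM per kb. These 5 genes have no KRAB pattern, and the last 3 differed by less than their spread. Summed over all members and scaled by TMM factors, the level was 3164.7 ± 86.2 CPM in the Control group and 3147 ± 148 CPM after iohexol. It was 3836 ± 57.0 CPM in the cisplatin group and 2663 ± 33.0 CPM in the vancomycin group. The 3 cisplatin sums (3888, 3844 and 3775 CPM) lay above every Control sum (3264, 3120 and 3110 CPM), the 3 vancomycin sums (2657, 2698 and 2633 CPM) lay below them, and the iohexol sums (3048, 3076 and 3317 CPM) overlapped them. In these whole-culture libraries, fewer cells of a kind and less RNA per cell cannot be told apart.

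With cisplatin, many of the members rose. Of the 230 tested, 112 (48.7%) were higher than in the Control group and 19 (8.26%) were lower at an adjusted p under 0.05 in edgeR's quasi-likelihood test, while over all 15876 genes tested 29.2% were higher and 30.6% lower. The median log2 fold change of the tested members was 0.31, against 0.01 for all genes, 0.15 for ZNF genes of other chromosomes and 0.17 for the other coding genes of chromosome 19. Most changes were small, since 20 members passed a log2 fold change of 1 as well and 3 passed -1, against 7.62% and 8.72% of all genes. Scaling by library size alone gave 148 higher and 7 lower and a member median of 0.53, with the median of all genes at 0.23. The difference between these medians is 0.31 under either scaling by construction, since a scaling shifts all genes of a library alike.

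With vancomycin more members fell than rose. Of 226 tested members 17 (7.52%) were higher and 88 (38.9%) were lower, beside 29.0% and 28.8% of the 15819 genes tested. Their median log2 fold change was -0.31, while it was -0.01 over all genes, -0.10 over ZNF genes of other chromosomes and 0.17 over the other coding genes of chromosome 19, which thus had a median of the opposite sign. A log2 fold change above 1 was reached by 2 members, ZNF610 and ZNF677, and one below -1 by 17, with 10.8% and 7.65% of all genes.

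With iohexol few members changed. Of 228 tested, 8 were higher (ZNF114, ZNF563, ZNF497, ZNF554, ZNF69, ZNF580, ZNF45 and ZNF587) and 3 were lower (ZNF85, ZNF121 and ZNF146), where 11.2% and 9.77% of the 15657 genes tested were called. ZNF114 and ZNF563 also passed a log2 fold change of 1 (4.02% of all genes), of which ZNF563 entered the test through the iohexol samples and left it when 10 counts were required in every sample, and no member passed -1 (1.25% of all genes) in edgeR's test, where 15 members were lower at an unadjusted p under 0.05, nor did any by DESeq2 or limma-voom. ZNF563 (4, 6 and 6 counts in the Control samples, 14, 19 and 17 with iohexol) and ZNF587 (log2 fold change 0.33 ± 0.09) were chosen after their values were seen, since the naming rule did not cover them. The counts depend on single libraries: without Iohexol replicate 3 the calls were 14 higher and 13 lower (14.8% and 13.5% of all genes), and without any one of the other 5 samples they were 1 to 3 higher and 0 to 2 lower. Scaling by library size alone gave 14 higher and 2 lower. The shares of all genes called in those 5 fits and by library size alone are not given here, so these counts have no background beside them.

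**Figure D1:**
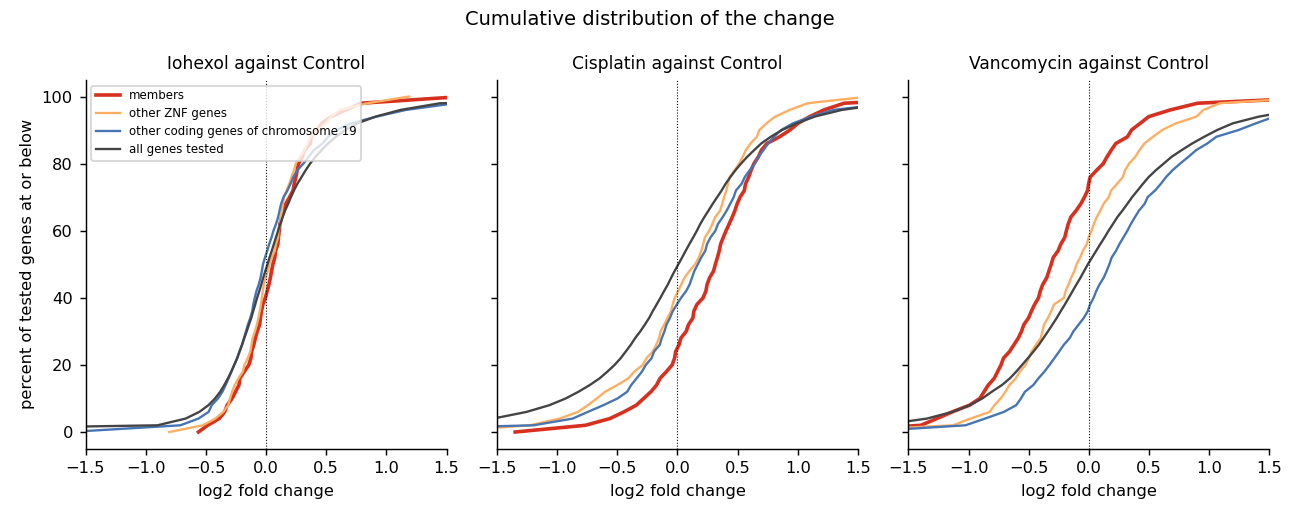
Cumulative distribution of the log2 fold change (horizontal axis) for the members, for ZNF genes of other chromosomes, for the other coding genes of chromosome 19 and for all genes tested, with 1 panel for each drug against the Control group; the vertical axis is the percent of tested genes at or below the value. The curve of the members lies to the right of the others over most of its course with cisplatin (median 0.31) and to the left with vancomycin (median -0.31), and runs beside them with iohexol (median 0.06).

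The 3 comparisons share the same Control samples, so the drugs were also set against each other directly in a fit of all 12 samples. Cisplatin against vancomycin, which does not use the Control means, gave 143 of 232 members higher and 14 lower with cisplatin, beside 30.0% and 34.7% of the 17073 genes tested, and a member median of 0.58 against -0.03 for all genes. For ZNF genes of other chromosomes the counts were 87 higher and 49 lower of 237. Cisplatin against iohexol gave 90 higher and 13 lower (26.0% and 27.9% of all genes), and vancomycin against iohexol gave 19 higher and 99 lower (29.0% and 27.6% of all genes).

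The genes called in opposite directions by cisplatin and vancomycin are best seen sample by sample, beginning with the 5 whose smaller change was largest. ZNF699, a KRAB protein, was at 6.02, 5.14 and 5.52 CPM in the Control samples, at 11.8, 9.91 and 8.92 CPM with cisplatin and at 4.38, 2.63 and 2.34 CPM with vancomycin. The 3 groups did not overlap, and the iohexol samples (3.73, 4.54 and 7.69 CPM) overlapped the Control samples. ZNF699 was 1.71 ± 0.25 (SE) higher on the log2 scale with cisplatin than with vancomycin. ZNF888 went from 10.7, 9.22 and 10.1 CPM in the Control group to 20.5, 22.0 and 22.3 CPM with cisplatin and 5.94, 6.21 and 6.47 CPM with vancomycin, a log2 difference between the drugs of 1.8 ± 0.13. Its cisplatin samples were all above and its vancomycin samples all below the Control range. The finger and KRAB stretches of ZNF888 shown above are near copies of those of ZNF468, so part of this value may belong to copies. ZNF560 had 2.83, 2.51 and 2.76 CPM in the Control group, 3.58, 4.74 and 4.61 CPM with cisplatin and 0.938, 1.22 and 1.29 CPM with vancomycin, and the drugs differed by 1.90 ± 0.25. For ZNF569 and ZNF565 the log2 difference was 1.49 ± 0.17 and 1.45 ± 0.20, and their groups did not overlap either. The span of ZNF565 overlaps that of ZNF146 on the other strand, so reads from stretches that both transcripts cover cannot be told apart. These values are a description of genes chosen for their opposite calls, and both calls use the same Control samples.

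Among KRAB members with a known target or role, the silencers of transposable elements did not move alike. ZNF91, which represses SVA elements and is encoded at chr19:23304991-23395560, was at 33.4, 27.0 and 27.4 CPM in the Control samples, at 21.1, 16.6 and 17.4 CPM with cisplatin and at 20.8, 15.1 and 14.4 CPM with vancomycin. Every cisplatin and vancomycin sample was below every Control sample, and the log2 fold change was -0.67 ± 0.12 with cisplatin and -0.84 ± 0.14 with vancomycin (adjusted p = 0.000104 and 1.85e-05). With iohexol ZNF91 had 19.5, 21.6 and 30.3 CPM, which overlaps the Control range. ZNF93, which represses L1 elements, was at 22.6, 16.9 and 16.4 CPM in the Control group, 26.2, 26.0 and 25.3 CPM with cisplatin and 14.1, 15.7 and 13.6 CPM with vancomycin. It rose by 0.47 ± 0.12 on the log2 scale with cisplatin and fell by 0.41 ± 0.14 with vancomycin. ZNF274, which recruits SETDB1 to the 3′ ends of zinc finger genes, rose from 55.4 ± 4.47 to 68.9 ± 2.53 CPM with cisplatin (log2 fold change 0.31 ± 0.08, adjusted p = 0.00199), and its vancomycin value of 66.2 ± 3.16 CPM missed the threshold (adjusted p = 0.0647).

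ZNF331, an imprinted gene, was at 27.3, 26.7 and 26.6 CPM in the Control samples, 49.0, 49.6 and 47.8 CPM with cisplatin and 15.2, 18.4 and 19 CPM with vancomycin. These 3 groups did not overlap, and the log2 fold changes were 0.86 ± 0.08 and -0.66 ± 0.12. ZNF350, a partner of BRCA1 in repression, rose with cisplatin from 6.52 ± 1.39 to 9.94 ± 0.93 CPM. ZNF675, an inhibitor of TRAF6 signalling, changed by 0.28 ± 0.12 with cisplatin and -0.62 ± 0.15 with vancomycin on the log2 scale, both past the threshold. ZNF160, a repressor of TLR4 transcription, fell with cisplatin from 36.1, 36.0 and 34.1 CPM to 29.9, 28.5 and 26.7 CPM (log2 fold change -0.32 ± 0.09, adjusted p = 0.00436). The 2 groups did not overlap, while with iohexol (31.6 ± 1.66 CPM) and vancomycin (31.7 ± 3.76 CPM) ZNF160 did not pass the test. ZNF224, a repressor of ALDOA, passed with no drug and was at 6.52 ± 0.754 CPM in the Control group and at 7.66 to 8.11 CPM on average with the drugs.

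The largest rises with cisplatin that the naming rule admitted were those of ZNF878, ZNF296, ZNF844, ZNF442, ZNF468 and ZNF547. For rises and falls that rule admits only called members whose drug and Control samples do not overlap. Such separation is thus no result for the rises and falls it names. ZNF468 was the most abundant of them, at 21.4, 19.9 and 17.3 CPM in the Control samples, 47.8, 51.2 and 49.3 CPM with cisplatin and 13.8, 13.8 and 13.4 CPM with vancomycin. All cisplatin samples were more than 2-fold above all Control samples (log2 fold change 1.34 ± 0.09, adjusted p = 1.71e-09), and 53.1% of its 31-base words occur in other genes, so part of this value may belong to copies. ZNF844 went from 9.29, 8.66 and 6.90 CPM to 22.6, 20.6 and 22.3 CPM (1.40 ± 0.13, adjusted p = 4.35e-08), whereas its iohexol (9.42 ± 1.58 CPM) and vancomycin (8.30 ± 1.74 CPM) samples overlapped the Control group. ZNF296, which has no KRAB pattern, went from 3.34, 3.01 and 4.80 CPM to 11.5, 9.73 and 10.4 CPM, a log2 fold change of 1.5 ± 0.18, and overlapped the Control group with the other drugs. ZNF442 and ZNF547 rose by 1.38 ± 0.26 and 1.24 ± 0.23. ZNF878 stood near the floor in the Control samples (4, 5 and 5 counts) and reached 24, 37 and 24 counts with cisplatin, so that it entered the test through the cisplatin samples alone and its log2 fold change of 2.43 ± 0.42 is imprecise.

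Falls with cisplatin were fewer. ZNF333 went from 5.30, 6.27 and 5.79 CPM to 3.15, 1.60 and 3.43 CPM (log2 fold change -1.08 ± 0.23, adjusted p = 0.000718), and it did not pass with iohexol (4.29 ± 0.243 CPM) or vancomycin (6.71 ± 0.145 CPM). All 3 cisplatin samples were below the Control range, as the naming rule requires. ZNF613 fell from 5.57 ± 0.703 to 2.70 ± 0.510 CPM (-1.04 ± 0.21) and ZNF730 from 2.28 ± 0.666 to 0.887 ± 0.139 CPM (-1.35 ± 0.33). ZNF285, ZNF91 and ZNF792 completed the 6 falls of the rule, with log2 fold changes of -0.98, -0.67 and -0.64.

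**Figure D2:**
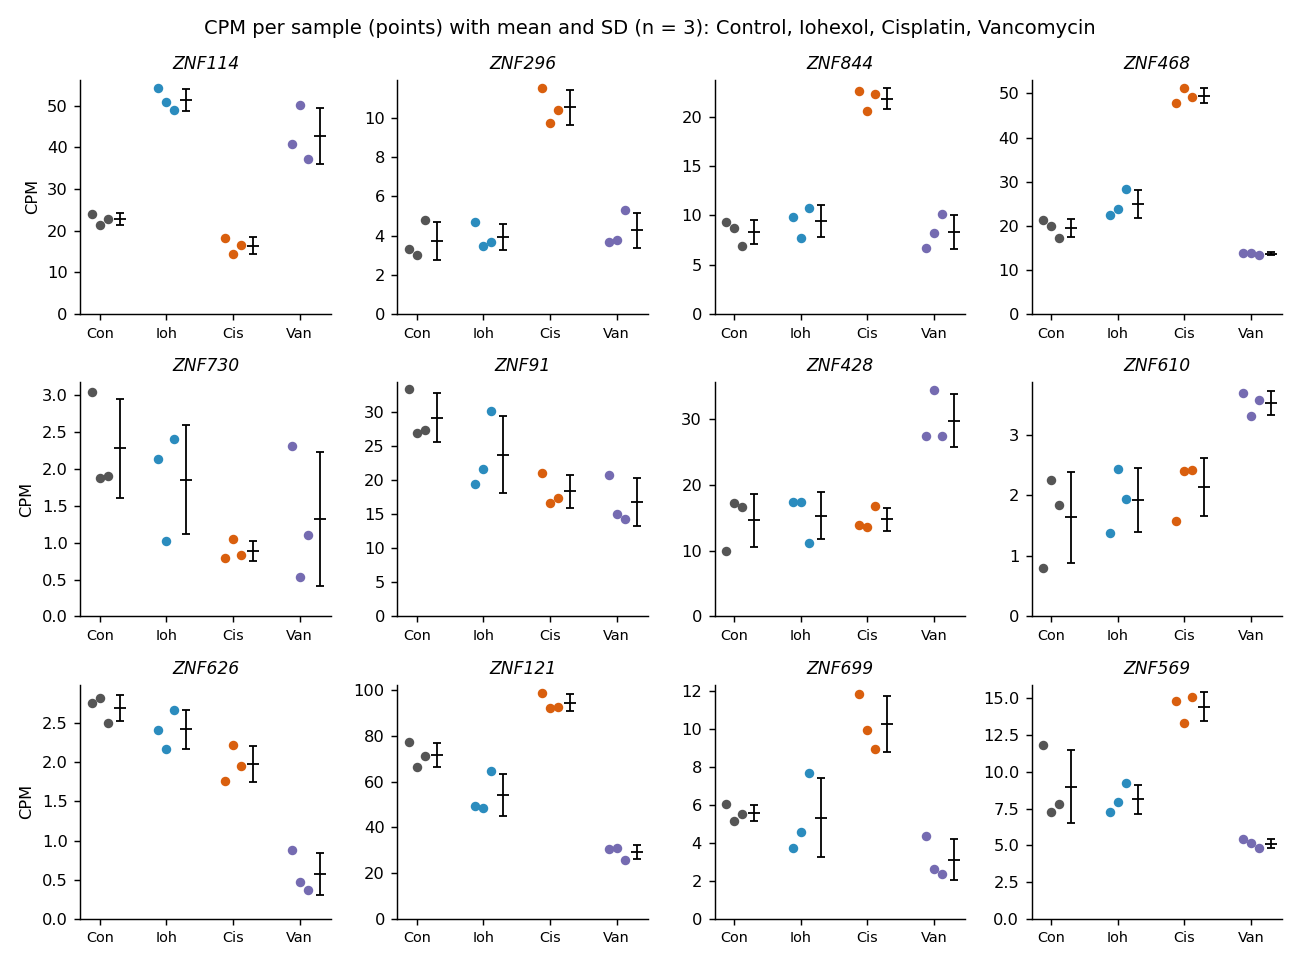
CPM (vertical axis, starting at 0) in each of the 3 samples of a group (points), with the mean and SD (n = 3) beside them, for 12 members in the Control (Con), Iohexol (Ioh), Cisplatin (Cis) and Vancomycin (Van) groups. ZNF114 is above the Control samples with iohexol and vancomycin and below them with cisplatin, ZNF91 is below them with cisplatin and vancomycin, and ZNF121, ZNF699 and ZNF569 are above them with cisplatin and below them with vancomycin.

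With vancomycin, members with and without the KRAB pattern had different medians, a difference that was not tested. KRAB members counted 10 higher and 78 lower of 192 tested, with a median log2 fold change of -0.34, and members without the pattern 7 higher and 10 lower of 34, with a median of -0.01. With cisplatin both kinds had similar medians, 0.31 with the pattern and 0.35 without it. The largest vancomycin falls were those of ZNF626, ZNF573, ZNF724, ZNF556, ZNF257 and ZNF121. ZNF626 went from 2.76, 2.82 and 2.50 CPM to 0.876, 0.473 and 0.370 CPM (log2 fold change -2.26 ± 0.38, adjusted p = 1.9e-05), and ZNF573 from 4.06, 3.07 and 2.70 CPM to 1.00, 0.675 and 0.431 CPM (-2.25 ± 0.36, adjusted p = 1.04e-05). In both genes every vancomycin sample was below every sample of the other 3 groups. ZNF257 went from 11.5, 10.3 and 9.40 CPM to 4.38, 4.05 and 3.33 CPM (-1.45 ± 0.18), and ZNF724 and ZNF556 fell by 1.93 ± 0.30 and 1.52 ± 0.24 on the log2 scale.

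ZNF121 and ZNF146, members without a KRAB pattern and at higher levels, fell as well. ZNF121, at chr19:9560353-9584533, was at 77.2, 66.5 and 71.3 CPM in the Control samples and at 30.7, 31 and 25.6 CPM with vancomycin, a log2 fold change of -1.34 ± 0.11 (adjusted p = 2.23e-10). It rose to 98.7, 92.4 and 92.6 CPM with cisplatin (0.40 ± 0.07) and was at 49.3, 48.3 and 64.7 CPM with iohexol (-0.39 ± 0.12, adjusted p = 0.04). All drug samples lay outside the Control range, on the upper side with cisplatin alone, and the naming rule required this separation for both falls. ZNF146, which consists almost wholly of fingers, followed the same order, with 175, 161 and 148 CPM in the Control samples, 121, 114 and 135 CPM after iohexol, 188, 182 and 181 CPM after cisplatin, and 78.1, 86.8 and 70.3 CPM after vancomycin. The log2 fold changes of ZNF146 were -0.37 ± 0.10, 0.19 ± 0.07 and -1.09 ± 0.10, and the direct difference between cisplatin and vancomycin was 1.23 ± 0.09 (adjusted p = 4.01e-10). The span of ZNF146 overlaps that of ZNF565 on the other strand, with the limit on reads from shared stretches given above.

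Rises with vancomycin were led by ZNF677, ZNF610, ZNF547, ZNF428, ZNF114 and ZNF524. ZNF428, which has 1 finger and no KRAB pattern, was at 9.94, 17.2 and 16.6 CPM in the Control samples and at 27.5, 34.4 and 27.4 CPM with vancomycin (log2 fold change 0.98 ± 0.15, adjusted p = 8.66e-06), and overlapped the Control range with the other drugs. ZNF524, also without the pattern, went from 9.74 ± 3.20 to 17.8 ± 2.21 CPM (0.82 ± 0.17). ZNF581 and ZNF787, among the highest per length, rose by 0.69 ± 0.12 and 0.32 ± 0.09, whereas ZNF865 fell by 0.25 ± 0.10 and ZNF579 did not pass (0.10 ± 0.11). ZNF428 and ZNF524 overlap SRRM5 and FIZ1 on the other strand. ZNF610 rose from 1.63 ± 0.752 to 3.52 ± 0.196 CPM. ZNF677 had 1, 13 and 3 counts in the Control samples and 35, 20 and 25 counts with vancomycin, so it passed the filter through the vancomycin samples, and its log2 fold change was 2.12 ± 0.52. Without Control replicate 2 it was 3.50, and without any one of the other samples 1.67 to 2.26.

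ZNF114, a KRAB member with 3 fingers, led the iohexol rises of the naming rule. It was at 24.1, 21.3 and 22.8 CPM in the Control samples, 54.2, 50.8 and 49.1 CPM after iohexol, 18.3, 14.4 and 16.5 CPM after cisplatin, and 40.7, 50.1 and 37.2 CPM with vancomycin. No drug group overlapped the Control group, which the naming rule required for the iohexol and vancomycin rises. The log2 fold changes were 1.19 ± 0.11 (adjusted p = 1.25e-05), -0.47 ± 0.11 (adjusted p = 0.00158) and 0.87 ± 0.12 (adjusted p = 1.39e-06). The span of ZNF114 overlaps that of the antisense gene ZNF114-AS1, and reads from stretches that both transcripts cover cannot be told apart. Of the other iohexol rises, ZNF497 went from 2.71 ± 0.58 to 4.57 ± 0.944 CPM (0.77 ± 0.24), ZNF554 from 3.98 ± 0.63 to 6.49 ± 0.605 CPM (0.72 ± 0.19), ZNF69 from 6.79 ± 0.598 to 9.74 ± 1.60 CPM (0.54 ± 0.17), ZNF580 from 16.9 ± 1.97 to 23.0 ± 3.61 CPM (0.46 ± 0.15) and ZNF45 from 15.7 ± 1.36 to 20.8 ± 1.33 CPM (0.42 ± 0.12). ZNF85 fell from 12.6, 12.1 and 12.8 CPM to 7.81, 7.55 and 9.69 CPM (-0.56 ± 0.15, adjusted p = 0.0179).

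ZNF473, known for its part in the 3′ processing of histone pre-mRNA and without a KRAB match within 2 residues, stands alone in its stretch of the chromosome. It was at 25.7, 21.7 and 23.9 CPM in the Control samples, 47.1, 46.1 and 46.0 CPM with cisplatin and 20.5, 18.8 and 19.8 CPM with vancomycin. The cisplatin samples were all above the other groups (log2 fold change 0.97 ± 0.09, adjusted p = 5.51e-08), and the vancomycin samples lay below the Control range (-0.31 ± 0.12, adjusted p = 0.0285).

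By position, a gap of more than 1 Mb between neighbouring gene starts divided the members into 16 clusters, of which 7 with at least 15 members held 228 genes. In the order of the chromosome these 7 ran from ZNF557 to ZNF846 (16 members), ZNF653 to ZNF791 (26), ZNF101 to ZNF254 (37), ZNF565 to ZNF573 (26), ZNF575 to ZNF296 (24), ZNF175 to ZNF331 (40) and ZNF628 to ZNF446 (59). A gap of 0.5 Mb gave 20 clusters. The log2 fold changes of members next to each other correlated with a Pearson r of 0.11 over 227 pairs with iohexol, 0.25 over 229 pairs with cisplatin and 0.30 over 225 pairs with vancomycin. This is across genes, which share libraries, base composition and in places near-identical sequence.

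The cluster from ZNF101 to ZNF254, whose gene starts span positions 19668796 to 24033405, had the lowest vancomycin median of the 7. None of its 29 tested members was higher and 25 (86.2%) were lower, with a median log2 fold change of -0.78 and a range of -2.26 to -0.26, so that all 29 were below 0, and DESeq2 and limma-voom called 25 and 26 lower. Of the other members, 17 of 197 were higher and 63 (32.0%) lower, with a median of -0.23. Over 14 alternative fits the number lower in the cluster was 24 to 26. The same 29 genes showed no shared direction with cisplatin, where 10 were higher and 7 lower with a median of -0.03, and in the direct contrast 22 were higher with cisplatin than with vancomycin and 0 lower (median 0.86) in edgeR's test, where at an unadjusted p under 0.05 the counts were 23 and 0. The remaining 8 of the 37 members were tested with no drug. ZNF257, ZNF626, ZNF724, ZNF85, ZNF91, ZNF93, ZNF675 and ZNF730 belong to this cluster, and of these ZNF730 alone was not called with vancomycin (-0.80 ± 0.40, adjusted p = 0.0893). Base composition and similarity also differed in this cluster. The median transcript GC content was 37.6% in the cluster and 42.2% over all members, and the median share of 31-base words found in other genes was 19.6% against 9.81%. That share was 23.7% in the cluster from ZNF653 to ZNF791, where 2 of 17 tested members were lower with vancomycin. Across 226 members it correlated with the vancomycin change with a Pearson r of -0.12 and a Spearman rho of -0.19. Among members with a GC content under 42%, 24 of 27 in the cluster and 34 of 79 elsewhere were lower. Only 3 tested members of the cluster had under 10% of shared words, and 2 of them were lower, so the part of shared reads in the result was not tested.

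The cluster from ZNF565 to ZNF573 also fell with vancomycin, with 0 higher and 15 lower of 25 tested (median -0.58), and rose with cisplatin, with 15 higher and 0 lower of 26 (median 0.38). In the direct contrast 21 of 26 members were higher with cisplatin and 0 lower, with a median of 1.01. At an unadjusted p under 0.05 edgeR's test gave 16 higher and 0 lower with cisplatin and 0 higher and 15 lower with vancomycin, and DESeq2 gave 13 and 0, and 0 and 14. Here 13 of the 20 members with under 10% of shared words were lower with vancomycin and 13 of 20 were higher with cisplatin. Without Control replicate 2 the number higher with cisplatin was 10. The cluster from ZNF653 to ZNF791 had the highest cisplatin median, 0.59, with 13 higher and 0 lower of 21 tested, and with vancomycin 0 higher and 2 lower of 17. It holds ZNF878, ZNF844, ZNF442 and ZNF69, and with 10 counts required in every sample 9 of 16 were higher. At an unadjusted p under 0.05 there were 0 lower with cisplatin and 1 higher with vancomycin in edgeR's test, and DESeq2 called none of either. In the cluster from ZNF557 to ZNF846, 10 of 15 were higher with cisplatin and 6 of 15 lower with vancomycin, and 0 were called the other way by edgeR's test, by DESeq2 or at an unadjusted p under 0.05.

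The 3 clusters nearer the end of the long arm were mixed. From ZNF175 to ZNF331, 20 of 37 members were higher and 2 lower with cisplatin, and 7 of 38 were higher and 13 lower with vancomycin. From ZNF628 to ZNF446, the counts were 27 higher and 4 lower of 59 with cisplatin and 7 higher and 15 lower with vancomycin. From ZNF575 to ZNF296, 11 of 23 were higher and 2 lower with cisplatin, and 2 were higher and 3 lower with vancomycin. Of the 17 members that vancomycin raised 16 lay in these 3 clusters, which held 38, 59 and 23 of the 226 members tested. Their median GC contents were 41.5%, 46.4% and 42.7%, against 43.2%, 42.5%, 37.6% and 39.4% in the 4 clusters before them. With a gap of 0.5 Mb, ZNF628 to ZNF446 split into parts at 58.7% GC, with 4 of 16 higher with vancomycin, and 46.1%, with 3 of 43. The part of GC content in these rises was not tested. The other coding genes inside the clusters gave a further comparison. Within the bounds of the cluster from ZNF557 to ZNF846, 11 of 26 other coding genes were higher and 6 lower with vancomycin (median 0.20), where the members had 0 and 6 of 15. Between ZNF653 and ZNF791, 4 of 5 other coding genes were higher with vancomycin (median 0.93), while the members had a median of -0.30. Between ZNF565 and ZNF573 the other coding genes had 0 higher and 2 lower of 4 (median -0.67), beside a member median of -0.58. The counts were 8 higher and 2 lower of 19 between ZNF575 and ZNF296, 1 and 0 of 3 between ZNF175 and ZNF331, and 6 and 6 of 22 between ZNF628 and ZNF446 (median -0.05), so the neighbours moved against the members in some clusters and with them in others. The cluster from ZNF101 to ZNF254 holds only 2 other coding genes, and neither passed the filter.

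**Figure D3:**
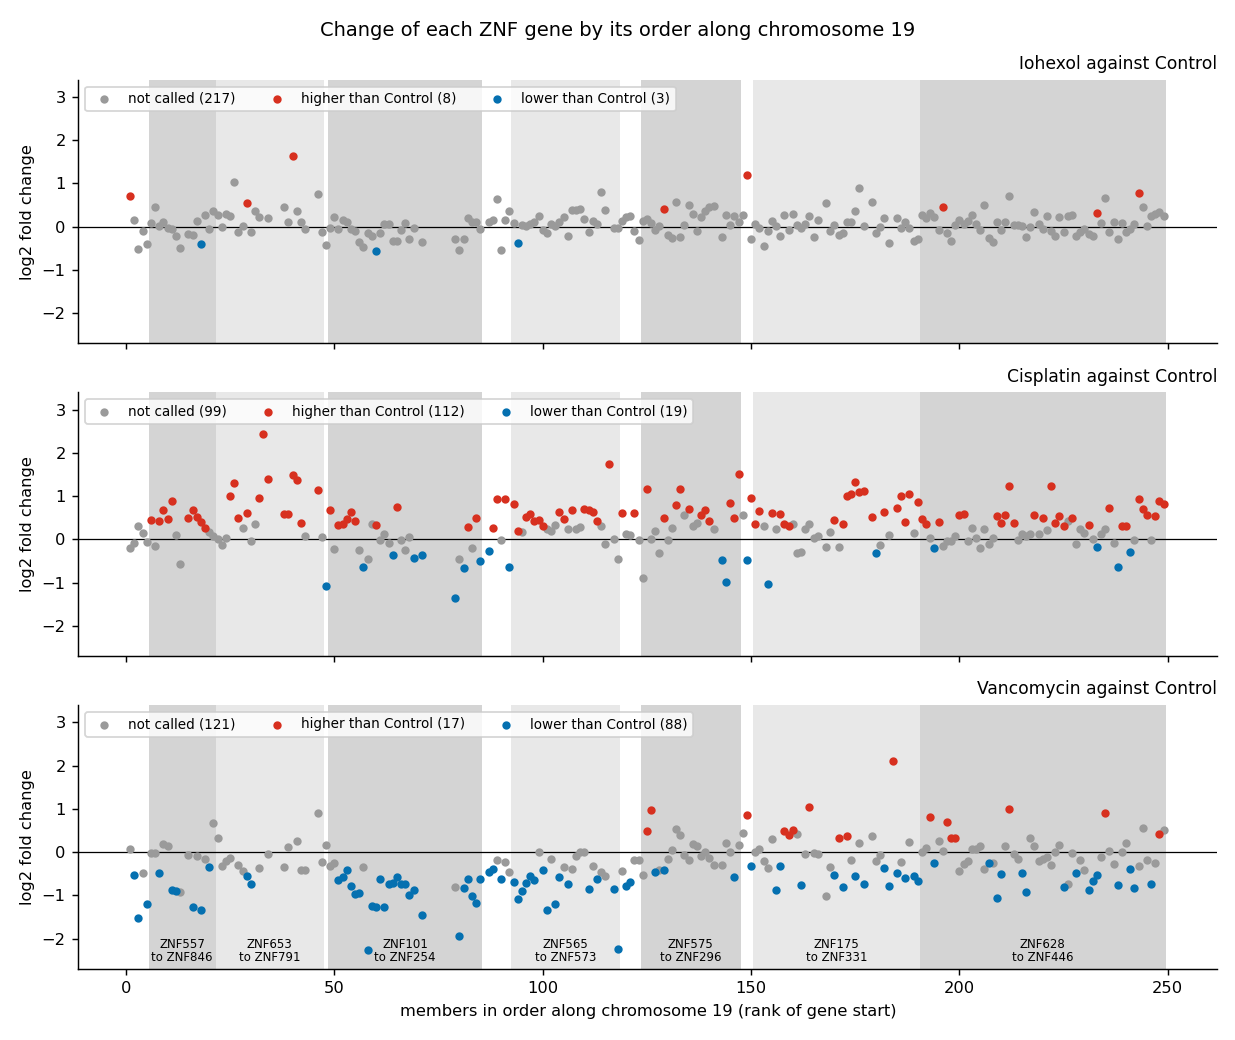
Log2 fold change (vertical axis) of each tested member against the Control group with iohexol, cisplatin and vancomycin, with the members in their order along chromosome 19 on the horizontal axis; red points were higher, blue points lower and grey points not called, and grey bands mark the 7 clusters with at least 15 members. In the vancomycin panel all points of the band from ZNF101 to ZNF254 lie below 0, and in the cisplatin panel the same band holds points on both sides of 0.

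**Figure D4:**
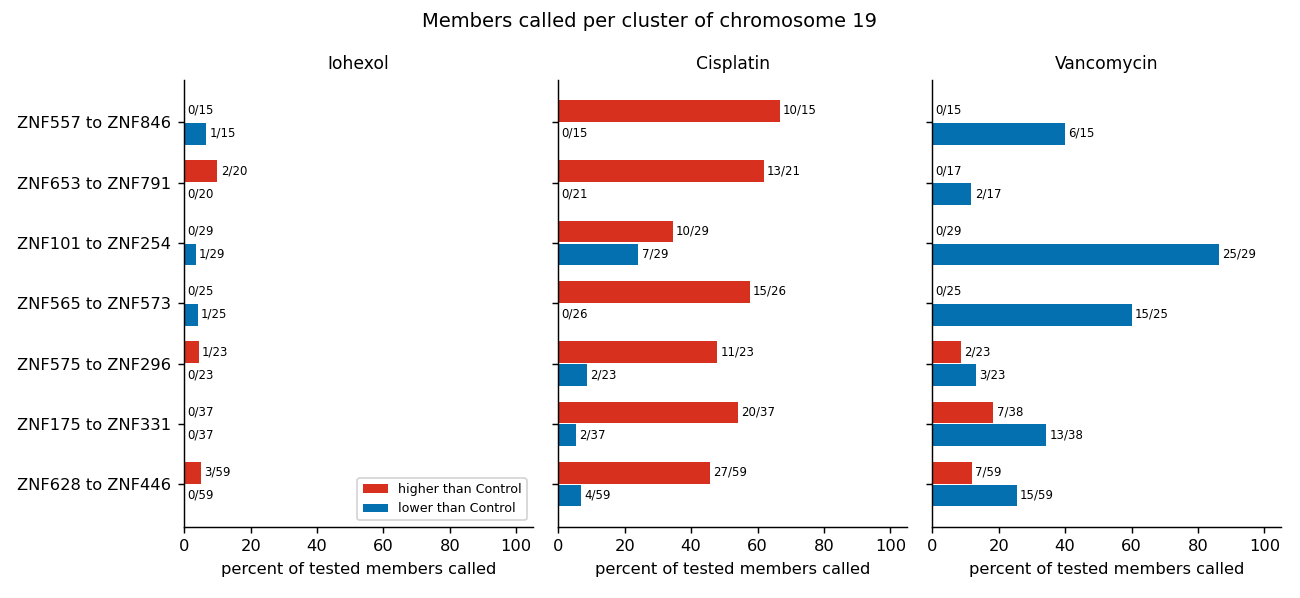
Percent of the tested members of each of the 7 large clusters (horizontal axis, from 0) that were higher (red) or lower (blue) than in the Control group, with 1 panel per drug and the counts at the bar ends. The longest bar is that of the cluster from ZNF101 to ZNF254 with vancomycin (25 of 29 lower), and with iohexol the bars are short, with at most 3 members of a cluster called in one direction.

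Base composition was followed over all members. The median GC content was 42.4% in the members tested with cisplatin and 48.4% in the other coding genes tested. Across the 226 members tested with vancomycin, which share libraries and depth, the GC content and the log2 fold change correlated with a Pearson r of 0.35 and a Spearman rho of 0.40, and with cisplatin with 0.02 and 0.04 over 230. With vancomycin, 4 members were higher and 58 lower of 106 with a GC content under 42%, and 7 higher and 4 lower of 33 with over 50%. Other coding genes under 42% GC were also more often lower than higher with vancomycin, at 524 higher and 1464 lower of 3260 (median -0.23, members -0.48). With cisplatin the other coding genes under 42% GC went the other way from the members, with 704 higher and 1321 lower of 3210 (median -0.13) against 48 higher and 11 lower of 106 members (median 0.28). The part of base composition in the vancomycin result was not tested.

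Promoter sequences from RefSeq (GRCh38.p14, 250 bases before to 50 after the gene start) were matched for 217 members. The word CCGGAAG, a core of ETS-type binding sites, occurred on either strand in 99 of them (45.6%), against 14.4% of 14896 coding promoters, and CCAAT in 53.9% against 36.4%. TATAAA occurred in 1.84% against 9.37%, GCGCATGCG (NRF1) in 2.76% of both, AAGATGGCG (YY1) in 3.69% against 2.83% and ACTACAA in 5.07% against 3.22%. Each word was searched on both strands, and CCGGAAG can overlap AAGATGGCG by its last letters. In the cluster from ZNF101 to ZNF254 CCGGAAG was in 21 of 29 promoters and in that from ZNF653 to ZNF791 in 2 of 25. The promoters of 3 members of the first cluster are shown in the sense of the gene because their genes fell together with vancomycin and hold the word, in capitals, at nearly the same place, beside that of ZNF569, which lacks it and also fell. They lie at chr19:20923001-20923300 (ZNF85, plus strand), chr19:22052234-22052533 (ZNF257, plus strand), chr19:23395422-23395721 (ZNF91, minus strand) and chr19:37467395-37467694 (ZNF569, minus strand).
ZNF85: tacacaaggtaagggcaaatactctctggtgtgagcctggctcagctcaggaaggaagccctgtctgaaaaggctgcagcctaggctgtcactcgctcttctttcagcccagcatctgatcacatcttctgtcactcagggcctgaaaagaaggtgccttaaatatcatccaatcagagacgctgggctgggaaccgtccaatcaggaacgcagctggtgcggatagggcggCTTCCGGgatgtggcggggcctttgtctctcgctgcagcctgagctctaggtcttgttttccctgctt
ZNF257: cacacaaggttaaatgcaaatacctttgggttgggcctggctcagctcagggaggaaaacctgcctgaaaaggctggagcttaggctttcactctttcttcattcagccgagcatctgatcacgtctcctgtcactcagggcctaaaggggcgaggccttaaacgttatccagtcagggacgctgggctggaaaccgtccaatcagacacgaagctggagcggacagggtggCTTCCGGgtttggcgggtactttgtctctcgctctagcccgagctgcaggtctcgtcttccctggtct
ZNF91: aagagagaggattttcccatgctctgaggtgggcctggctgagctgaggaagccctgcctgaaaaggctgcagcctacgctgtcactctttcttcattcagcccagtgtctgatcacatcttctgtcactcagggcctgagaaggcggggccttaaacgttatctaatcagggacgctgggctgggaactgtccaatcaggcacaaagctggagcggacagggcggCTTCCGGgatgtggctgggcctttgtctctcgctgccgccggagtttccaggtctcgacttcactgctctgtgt
ZNF569: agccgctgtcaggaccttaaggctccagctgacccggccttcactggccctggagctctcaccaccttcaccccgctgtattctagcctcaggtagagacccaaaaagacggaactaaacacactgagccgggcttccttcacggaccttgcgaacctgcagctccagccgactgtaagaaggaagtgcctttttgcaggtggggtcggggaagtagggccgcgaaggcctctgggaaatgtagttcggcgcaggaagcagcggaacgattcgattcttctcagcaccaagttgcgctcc
The word, read from the other strand as CTTCCGG, begins at base 233 of 300 in ZNF85, at base 233 in ZNF257 and at base 227 in ZNF91. In the same cluster ZNF626 and ZNF93 lack the word and also fell with vancomycin, and ZNF730 holds it at base 233 and was not called. With vancomycin 40 of 92 members with the word and 41 of 110 without it were lower, and with cisplatin 44 of 91 and 58 of 113 were higher. A match describes the letters of the window and not a bound factor.

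The proteins that KRAB zinc finger proteins work with were followed in a list of 31 cofactor genes, all of which passed the filter. With cisplatin 5 were higher and 14 lower, with vancomycin 5 higher and 13 lower, and with iohexol 1 higher and 3 lower, and their median log2 fold changes were -0.14, -0.19 and -0.07. Over all genes the shares higher and lower were 29.2% and 30.6%, 29.0% and 28.8%, and 11.2% and 9.77%. TRIM28, the corepressor that binds the KRAB box and is itself encoded on chromosome 19, was at 657, 693 and 701 CPM in the Control samples, 692, 683 and 721 CPM with cisplatin, 593, 542 and 527 CPM with iohexol and 458, 445 and 454 CPM with vancomycin. Its vancomycin and iohexol samples were all below the Control range (log2 fold change -0.64 ± 0.08, adjusted p = 4.06e-07, and -0.29 ± 0.08, adjusted p = 0.0252), and with cisplatin it did not pass (0.03 ± 0.05). Of the H3K9 methyltransferases and their partners, SETDB1, ATF7IP, EHMT1 and EHMT2 fell with cisplatin by 0.45, 0.67, 0.98 and 0.49 on the log2 scale, and SUV39H1 and SUV39H2 rose by 0.36 and 0.57. With vancomycin EHMT1 fell by 0.31, EHMT2 rose by 0.32 and SETDB1 was not called (-0.17 ± 0.12).

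Other arms of the pathway moved as well. ATRX, a chromatin remodeller, went from 175 to 74.9 CPM on average with cisplatin (-1.23 ± 0.07, adjusted p = 1.51e-10), and its partner DAXX rose with cisplatin (0.39 ± 0.07) and vancomycin (0.47 ± 0.09). FAM208A, which encodes the HUSH subunit TASOR, fell with cisplatin (-0.63 ± 0.07) and vancomycin (-0.96 ± 0.10). Of the other HUSH genes on the list, PPHLN1 fell with cisplatin alone (-0.37 ± 0.08), and MPHOSPH8 and MORC2 passed with no drug. DNMT1, the maintenance DNA methyltransferase, fell by 0.31 with cisplatin and by 0.64 with vancomycin, and UHRF1, which guides it to replicated DNA, fell by 0.36 with iohexol and by 0.87 with vancomycin. DNMT3A, a de novo methyltransferase, went the other way with vancomycin, rising by 0.55, and fell by 0.33 with cisplatin. In the NuRD complex the remodellers CHD3 and CHD4 rose with vancomycin by 0.36 and 0.55, while MTA1, HDAC2, RBBP4 and RBBP7 fell by 0.44, 0.30, 0.42 and 0.27. HDAC1, MTA2 and MBD3 were not called with vancomycin (-0.002, 0.11 and 0.09). The HP1 genes CBX3 and CBX5 fell with vancomycin by 0.27 and 0.28, and CBX1 was not called (-0.18 ± 0.09).

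**Figure D5:**
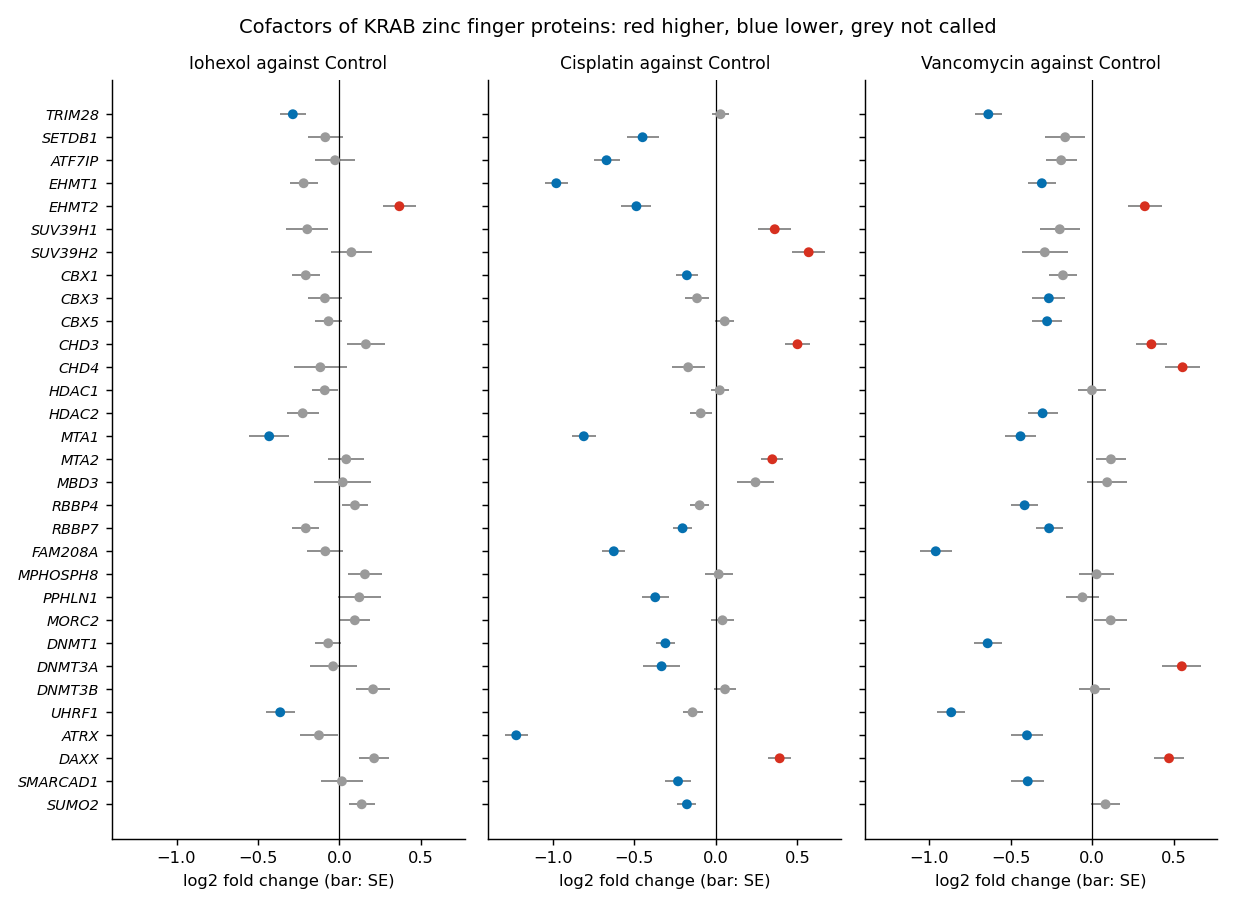
Log2 fold change (horizontal axis) with its standard error (bar) of the 31 cofactor genes with iohexol, cisplatin and vancomycin against the Control group, on 1 scale; red points were higher, blue points lower and grey points not called. TRIM28, in the top row, is below 0 with iohexol and vancomycin and near 0 with cisplatin (0.03), and ATRX has the lowest value with cisplatin (-1.23).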

How the data were processed

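RNA of 12 HK-2 samples in 4 groups of 3 was sequenced after poly(A) selection, and the authors deposited whole-number read counts per gene, which are not normalized. The submitters' processing notes name CASAVA 1.8, fastp, HISAT2 2.0.5, featureCounts 1.5.0-p3 and DESeq2 1.20.0. The genome build, the strand setting and the handling of reads that match several places are not given in the sources used here; the gene positions are those of GENCODE 29 on GRCh38. The library kit did not mark strand. Total counts of 14057282 to 18177109 per sample put the floor of 3 counts at 0.165 to 0.213 CPM, for counting error only.

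Genes were filtered with filterByExpr (minimum 10 counts, total 15), scaled by TMM and tested with edgeR 4.0.16 (R 4.3.3) by the quasi-likelihood test, each drug against the Control group, and the drugs against each other in 1 fit of all groups. P-values were adjusted over all genes tested (Benjamini-Hochberg), and a gene was called at an adjusted p under 0.05. SE is the log2 fold change divided by the square root of F. The code was tested on simulated data. Alternatives were DESeq2 1.42.0, limma-voom (limma 3.58.1), other scalings and filters, a replicate block, 1 fit of all groups and leaving out each sample. Fingers, KRAB pattern, GC content and 31-base words came from GENCODE 29, promoters from RefSeq. Tables and plots used Python 3.11.15, numpy 2.4.6, pandas 2.3.3 and matplotlib 3.10.9.

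Named were, per drug, the 6 called members with the largest rise and the 6 with the largest fall among those with a mean of at least 1 CPM and groups that did not overlap, the 5 called in opposite directions by 2 drugs with the largest smaller change, the 5 highest per kilobase, and 9 members with a known role. The members and lists were chosen with earlier results of these data known. A marker gene and a cofactor gene of these lists are not reported here.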

Additional observations from a re-analysis of the deposited data

Results flagged for a closer look

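For 5 members, cisplatin and vancomycin had opposite called effects against the Control group. The direct contrast in edgeR's quasi-likelihood test also called them. They were chosen for opposite calls from the same drug samples, so this contrast is no separate support. It likewise called all 40 members higher with cisplatin and lower with vancomycin, of 225 tested with all 3 drugs. Another 6 members were higher with both, 10 were lower with both, and 1 was lower with cisplatin and higher with vancomycin. The share of opposite calls over all genes is not given here. The log2 difference, cisplatin minus vancomycin, was 1.71 for ZNF699, 1.8 for ZNF888, 1.49 for ZNF569, 1.45 for ZNF565 and 1.90 for ZNF560. In each of them the 3 cisplatin samples were above and the 3 vancomycin samples below all 3 Control samples. They are the 5 members with the largest smaller change among those with opposite calls, and the calls share the Control samples. The limits on shared reads given above for ZNF888 and ZNF565 hold here too.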

How the results depend on the processing

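With iohexol, members called higher and lower were 15 and 10 in 1 fit of all 4 groups, 14 higher by library size alone, and 1 member passed a log2 fold change of 1 with 10 counts in every sample. Leaving out 1 sample gave 1 to 14 higher, 0 to 13 lower and 1 to 2 above a log2 fold change of 1. The highest counts, 14 and 13, came without Iohexol replicate 3. Without Control replicates 1, 2 and 3 there were 1, 2 and 2 higher, and without Iohexol replicates 1 and 2, 3 and 2. Of these iohexol alternatives, only the fit without Iohexol replicate 3 has its shares of all genes given above. With cisplatin, library size alone gave 7 lower, 32 above and 1 below a log2 fold change of 1 in size, and a median of 0.53; the median was 0.33 with 10 counts in every sample, 0.29 with no filter (an alternative chosen after seeing the data) and 0.28 to 0.34 without 1 sample, and 2 to 5 members were below a log2 fold change of -1, with 5 without Control replicate 2. With vancomycin the median was -0.29 with 10 counts in every sample, -0.39 by library size alone and -0.35 to -0.26 without 1 sample; members above a log2 fold change of 1 were 4 in 1 fit of all groups, 1 by library size alone, 4 by limma-voom and 2 to 5 without 1 sample, with 5 without Control replicate 1 or Vancomycin replicate 1 and 4 without Control replicate 2 or Vancomycin replicate 3. Library size alone also gave 6 members higher with vancomycin than iohexol and 7 lower with cisplatin than vancomycin, and turned ZNF787 and ZNF865 with cisplatin to 0.18 and 0.021; the cause was not tested. The main cisplatin and vancomycin call counts otherwise stayed within 1.5 times under every alternative run. Samples that share a replicate number share only that number (their deviations correlated by -0.18 to 0.10): with the replicate block, iohexol gave 5 higher and 1 lower, cisplatin 113 and 21, and vancomycin 20 and 92. Leaving out at least 1 sample ended the calls of ZNF121, ZNF146, ZNF45, ZNF497, ZNF554, ZNF580, ZNF69 and ZNF85 with iohexol, of ZNF146, ZNF257, ZNF675, ZNF85 and ZNF865 with cisplatin, and of ZNF45, ZNF473, ZNF565, ZNF69, ZNF865 and ZNF93 with vancomycin.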
